A study of Mus musculus with 10 samples.

Results

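The expression of 9 partner genes of PLZF was followed in the prefrontal cortex (PFC) of mice with and without a *Zbtb16* mutation. PLZF is the zinc-finger transcription factor that *Zbtb16* encodes, and the 9 genes, *Ncor1*, *Sin3a*, *Sin3b*, *Hdac1*, *Hdac3*, *Hdac4*, *Bmi1*, *Ezh2* and *Atp6ap2*, are those whose proteins are known as corepressor, histone deacetylase, Polycomb or receptor partners of PLZF. They were chosen by name and not by their values, although earlier results of these data were known. All 9 were found among the 22000 genes of the count table, and all 9 were among the 14344 genes with counts high enough to be tested.

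PLZF represses genes by bringing corepressors to DNA. Its BTB domain binds scaffold proteins such as NCOR1 and SIN3A, which carry histone deacetylases, and deacetylated histones make chromatin less open to transcription. Polycomb complexes hold genes silent through histone marks of their own, with BMI1 in the complex that ubiquitinates histones (PRC1) and EZH2 in the complex that methylates them (PRC2). ATP6AP2, the (pro)renin receptor, is a membrane protein that also belongs to the proton-pumping V-ATPase, and it sends PLZF to the nucleus when prorenin or renin binds.

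The PFC of 5 WT and 5 KO mice, 7 weeks old and male by their labels, gave 1 strand-specific mRNA-seq library for each animal. The KO mice carried 2 copies of *lu* (luxoid), a nonsense point mutation of *Zbtb16* carried in the line B6.C3-*Zbtb16* lu/J and thus present in all cells from conception. It is not a deletion, and no protein was measured in these files. The WT mice had no *lu* allele, and the sources name no treatment of either group. Counts per library lay between 30220122 and 51231439, so that the floor of 3 counts lay between 0.0580 and 0.0997 CPM (counts scaled to the size of each library), a limit that covers counting error alone. The summed level of 8 markers of cortical excitatory neurons was 2094 to 2475 CPM in KO mice and 1976 to 2288 CPM in WT mice, and 8 of 9 striatal markers, a sign of tissue beneath the PFC, summed to 233.6 to 355.6 CPM in KO mice and 186.7 to 422.6 CPM in WT mice. Over 4 Y-linked genes, the library labelled KO mouse 3 had 1 count and the others had 4376 to 8182, which goes against its label as male. It was kept, and the count of called members and the fold change of *Atp6ap2* are also given without it. KO mouse 5 had the deepest library and the lowest RNA integrity number (RIN), 8.1. *Zbtb16* itself was 60.0% of its WT level in KO mice, with a log2 fold change of -0.67 (SE 0.06, edgeR adjusted p = 2.8e-05).

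The first question was whether the genes for the partners are expressed at another level when PLZF is mutated. The genotypes were compared with the quasi-likelihood test of edgeR, in a model that also held 3 surrogate variables, which are weights per mouse for unrecorded differences between libraries. None of the 9 genes passed the threshold of 0.05 for the adjusted p, where 0.844% of all tested genes did. None reached an unadjusted p under 0.05 either, against 10.6% of all tested genes, and in DESeq2 and limma the count of called members was also 0, as it was without KO mouse 3 or KO mouse 5. Values of KO and WT mice overlapped for all 9 genes, whereas 1.58% of all tested genes had no overlap. Among the 9 fold changes 4 were above 0 and 5 below it, with a median of -0.01 on the log2 scale, beside -0.00 over all tested genes. In the edgeR model with 3 surrogate variables, the 95% interval of the difference lay within -10.3% to 12.5% of the WT level for 8 of the genes. The interval of *Ezh2* was wider and ran from -8.44% to 34.1%. Adjusted p-values of the 9 genes lay between 0.749 and 0.961 in edgeR's test. In bulk tissue, fewer cells of a type and less RNA per cell cannot be told apart.

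**Figure D1:**
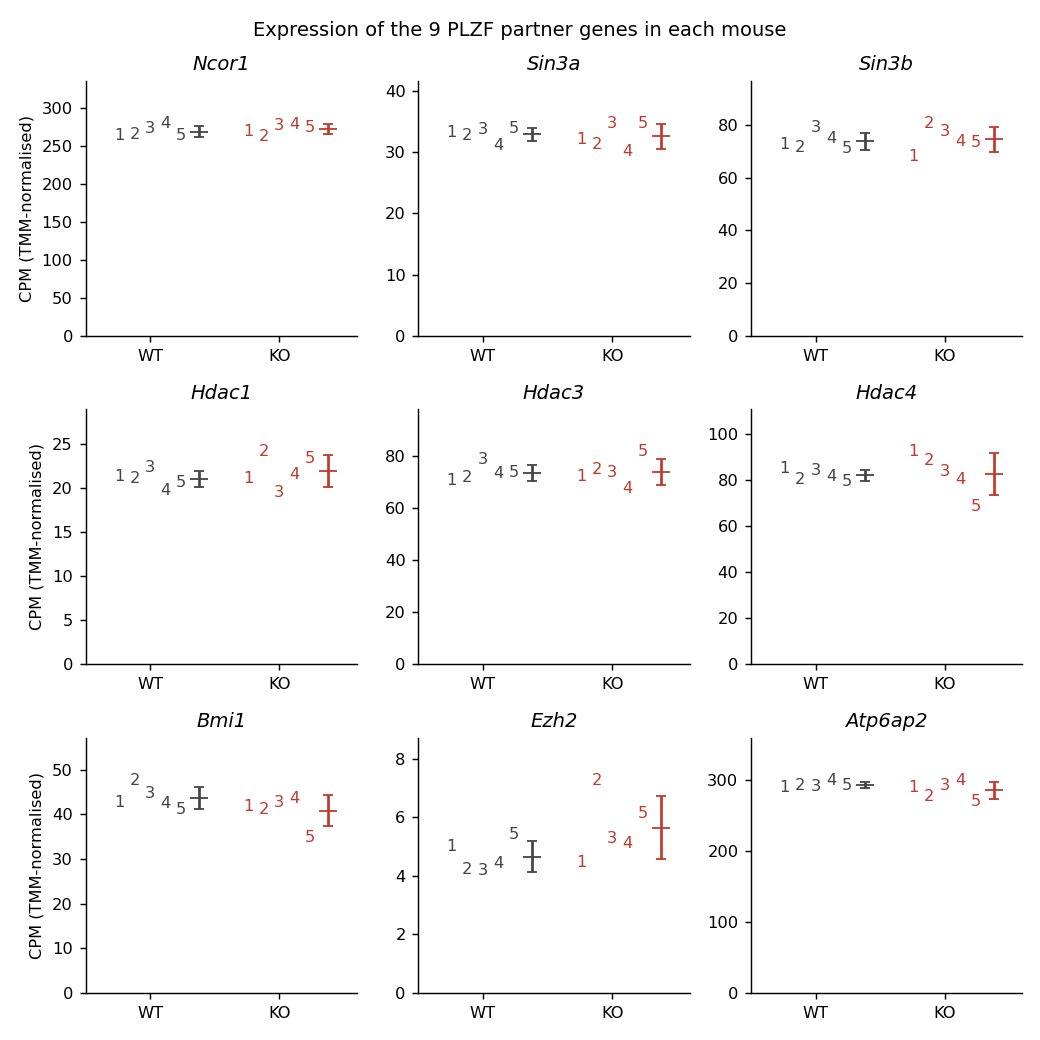
CPM (TMM-normalised, y axis from 0) of the 9 partner genes in each WT and KO mouse (x axis). Digits are the replicate numbers of the mice, and bars are the mean and SD of 5 mice. The groups overlap in all 9 panels. *Ncor1* and *Atp6ap2* are the most even, *Ezh2* is the most scattered, and KO mouse 5 is the lowest mouse for *Hdac4*, *Bmi1* and *Atp6ap2*.

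**Figure D2:**
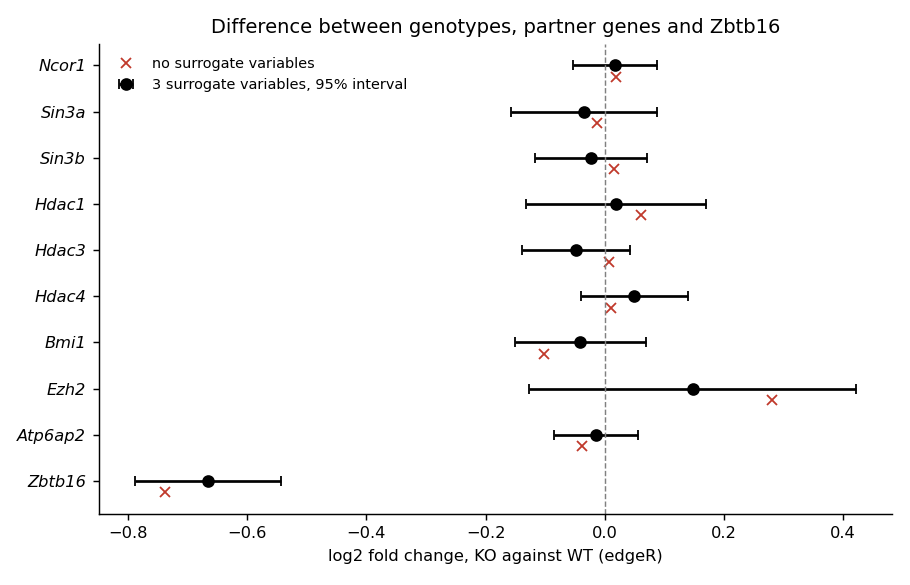
Log2 fold change of KO against WT mice (x axis) for the 9 partner genes and *Zbtb16*, with black dots and 95% intervals from edgeR with 3 surrogate variables and red crosses from the same test without them. The intervals of all 9 partner genes include 0, and that of *Zbtb16* does not.

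Scaffold proteins of the corepressor complexes come first. *Ncor1* (ENSMUSG00000018501.17, GRCm38 chromosome 11 from 62316426 to 62458541, minus strand) encodes the nuclear receptor corepressor that docks HDAC3. It was measured at 269.8, 262.3, 277.7, 278.4 and 274.7 CPM in KO mice 1 to 5 and at 263.3, 265.5, 273.4, 279.7 and 263.5 CPM in WT mice 1 to 5. The lowest and the highest mouse of both groups nearly coincided. Its log2 fold change was 0.02, with a 95% interval from -0.05 to 0.09. The coefficient of variation between mice of 1 genotype was 2.57%, lower than in all but 1.19% of the tested genes, whose median was 8.53%. Among the 1000 tested genes nearest to *Ncor1* in WT level, 5.59% had a lower coefficient. Exons of *Ttc19* and *Pigl* on the other strand overlap 0.648% of its exon bases, so few of its reads could be shared.

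*Sin3a* (ENSMUSG00000042557.14, chromosome 9 from 57072040 to 57128366, plus strand) and *Sin3b* (ENSMUSG00000031622.16, chromosome 8 from 72723285 to 72758201, plus strand) encode the paired scaffolds of the SIN3 complexes, which carry HDAC1 and HDAC2. *Sin3a* lies 8.24 Mb from *Zbtb16* on the chromosome that carries the *lu* allele, and the other members lie on other chromosomes. *Sin3a* ranged from 30.1 to 34.7 CPM in KO mice and from 31.1 to 33.8 CPM in WT mice, and its log2 fold change was -0.03 (95% interval -0.16 to 0.09). *Sin3b* ranged from 68.0 to 80.6 CPM in KO mice and from 71.0 to 79.0 CPM in WT mice. In both genes the WT range lay wholly within the KO range. For *Sin3b* the KO mean, 74.6 CPM, was above the WT mean of 73.8 CPM, while the fit with surrogate variables gave a log2 fold change of -0.02 (95% interval -0.12 to 0.07), so that it has no settled direction here.

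The 3 histone deacetylases differ in class. *Hdac1* (ENSMUSG00000028800.15, chromosome 4 from 129516104 to 129542713, minus strand) encodes a class I enzyme of the SIN3 complex. Its mean was 21.9 ± 1.84 CPM for KO mice and 20.99 ± 0.95 CPM for WT mice (SD, n = 5 each), with 2 KO mice above and 1 below all WT mice. Its log2 fold change was 0.02 (95% interval -0.13 to 0.17). *Hdac3* (ENSMUSG00000024454.16, chromosome 18 from 37935844 to 37955016, minus strand) encodes the catalytic subunit of the NCoR complex. Its level was 73.9 ± 5.04 CPM in KO mice and 73.6 ± 3.01 CPM in WT mice (SD, n = 5 each). The fitted log2 fold change of *Hdac3* was -0.05 (95% interval -0.14 to 0.04), on the other side of 0 from its means.

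*Hdac4* (ENSMUSG00000026313.16, chromosome 1 from 91928779 to 92195699, minus strand) encodes a class IIa deacetylase that moves between nucleus and cytoplasm. Its values were 92.1, 88.6, 83.5, 80.3 and 68.6 CPM in KO mice 1 to 5 and 84.9, 80.2, 84.0, 81.4 and 79.3 CPM in WT mice 1 to 5. KO mice 1 and 2 lay above every WT mouse and KO mouse 5 lay below every WT mouse, so the KO group spread on both sides of a narrow WT group. Its coefficient of variation was 10.97% among KO mice and 2.94% among WT mice. The log2 fold change was 0.05 (95% interval -0.04 to 0.14). Without KO mouse 5 it was 0.09 (unadjusted p = 0.0481, adjusted p = 0.445 in edgeR's test), the lowest p of any member in any of the fits made. Without KO mouse 1 it was 0.0062 (adjusted p = 0.992), and without surrogate variables it was 0.01 (adjusted p = 0.988), so the value of *Hdac4* depended on single KO mice and on the model.

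*Bmi1* (ENSMUSG00000026739.13, chromosome 2 from 18677018 to 18686629, plus strand) encodes the PCGF4 subunit that builds the canonical PRC1 around its ubiquitin ligase. The gene stood at 41.9, 41.2, 42.6, 43.5 and 34.8 CPM in KO mice 1 to 5 and at 42.7, 47.6, 44.6, 42.4 and 41.1 CPM in WT mice 1 to 5. No KO mouse exceeded the WT mean of 43.7 CPM, and KO mouse 5 lay well below the other 9 mice. The log2 fold change was -0.04 (95% interval -0.15 to 0.07) with surrogate variables and -0.10 without them (adjusted p = 0.746 in edgeR's test). Without KO mouse 5 it was -0.03 (adjusted p = 0.90), and over all mice left out in turn it lay between -0.07 (without KO mouse 4) and -0.0040 (without WT mouse 3), with -0.0097 without KO mouse 1. The library of KO mouse 5 had the lowest RIN, 8.1. KO mouse 3 (RIN 8.3) and WT mice 3 and 4 (RIN 8.2 each) had *Bmi1* at 42.6, 44.6 and 42.4 CPM. KO mouse 5 had the highest summed level of 6 markers of dividing cells, 18.3 CPM against 3.90 to 12.5 CPM. Its summed markers of cortical excitatory neurons were also the highest (2475 CPM). Those of interneurons (722.9 CPM), oligodendrocytes (5953 CPM) and endothelial cells (137.6 CPM) were the lowest of all mice. The part of any of these in the *Bmi1* value of KO mouse 5 was not tested.

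*Ezh2* (ENSMUSG00000029687.16, chromosome 6 from 47530139 to 47595341, minus strand) encodes the histone methyltransferase of PRC2 that is best known from dividing and progenitor cells. It was measured at 4.46, 7.26, 5.27, 5.11 and 6.15 CPM in KO mice 1 to 5 and at 5.02, 4.23, 4.20, 4.42 and 5.43 CPM in WT mice 1 to 5. Of the KO mice 4 lay above the WT mean and 2, KO mice 2 and 5, above every WT mouse, while KO mouse 1 sat among the lower WT mice. The KO mean was 5.65 ± 1.08 CPM and the WT mean 4.66 ± 0.54 CPM (SD, n = 5 each). This was the largest fold change of the 9 genes, 0.15 on the log2 scale with a standard error of 0.13 (adjusted p = 0.757 in edgeR's test). It was 0.28 without surrogate variables (unadjusted p = 0.0651, adjusted p = 0.664 in edgeR's test), so the estimate depended on the model and passed the threshold in neither. Leaving out 1 mouse at a time gave 0.08 to 0.23, the lowest without WT mouse 3.

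All 6 markers of dividing cells had counts in every mouse. *Cdk1* fell to 0.0282 CPM in a KO mouse and *Aurkb* to 0.0419 CPM in a WT mouse, under the floor of 3 counts. The 6 markers summed to 3.90 to 18.3 CPM in KO mice and 7.08 to 12.5 CPM in WT mice. KO mouse 5, second highest in *Ezh2*, was highest in these markers, and KO mouse 1, lowest of the KO mice in *Ezh2*, was lowest in them. KO mouse 2, highest in *Ezh2*, had only 9.39 CPM of them, below KO mouse 4 and WT mice 3 and 5. In the fit with surrogate variables 5 of the 6 dividing cell markers had a fold change below 0 (median -0.27 on the log2 scale). Among these, *Mki67*, *Top2a* and *Aurkb* had KO means above their WT means (3.95 against 3.01 CPM for *Mki67*), so their direction is not settled. None of the 6 was called (lowest adjusted p = 0.687 in edgeR's test). KO mouse 2, with the most *Ezh2*, had the highest summed level of 6 oligodendrocyte markers, 8619 CPM against 5953 to 7747 CPM in the other mice, and of 5 markers of oligodendrocyte precursors, 264.7 CPM against 200.8 to 223.0 CPM. It was also the highest mouse for the summed markers of astrocytes (1458 CPM), microglia (291.3 CPM) and meninges and choroid plexus (69.2 CPM), so the shift was not particular to oligodendrocytes. Of the 61 tested markers of 10 cell types none was called (lowest adjusted p = 0.0841 in edgeR). In the same test 15 had an unadjusted p under 0.05, a higher share than the 10.6% of all tested genes. Most frequent among them were striatal markers (4 of 7 tested, all 4 above 0) and interneuron markers (3 of 6, all 3 below 0). The part of these cell types in the *Ezh2* values was not tested.

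*Atp6ap2* (ENSMUSG00000031007.2, chromosome X from 12587801 to 12617049, plus strand) was the only member on a sex chromosome. It was at 288.7, 277.0, 292.2, 298.8 and 269.5 CPM in KO mice 1 to 5 and at 289.6, 292.9, 290.2, 299.3 and 292.2 CPM in WT mice 1 to 5. KO mice 1, 2 and 5 lay below every WT mouse and no KO mouse lay above the highest. The log2 fold change was -0.01 (95% interval -0.08 to 0.06), and the coefficient of variation was 4.15% among KO mice and 1.32% among WT mice. KO mouse 3, whose Y-linked genes go against its label, was within the WT range, and without it the log2 fold change was -0.02 (adjusted p = 0.934 in edgeR's test).

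To set the genes against each other, CPM was divided by the length of each gene's merged exons in kb. In WT mice *Atp6ap2* was highest at 111.9 CPM per kb. It was followed by *Ncor1* at 21.0, *Hdac3* at 18.1, *Bmi1* at 10.99, *Sin3b* at 10.04, *Sin3a* at 6.11, *Hdac1* at 6.09, *Hdac4* at 5.18 and *Ezh2* at 0.698 CPM per kb. *Bmi1* and *Sin3b* overlapped and kept this order in 8 of the 10 mice, and *Sin3a* and *Hdac1* kept theirs in 3 of 10. The ranges of *Hdac1* and *Hdac4* also overlapped, although *Hdac1* was higher within each of the 10 mice. Every other pair of neighbours in this order was separate over all mice. *Ezh2* thus stood apart, 7.43-fold below *Hdac4*, its nearest neighbour.

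**Figure D3:**
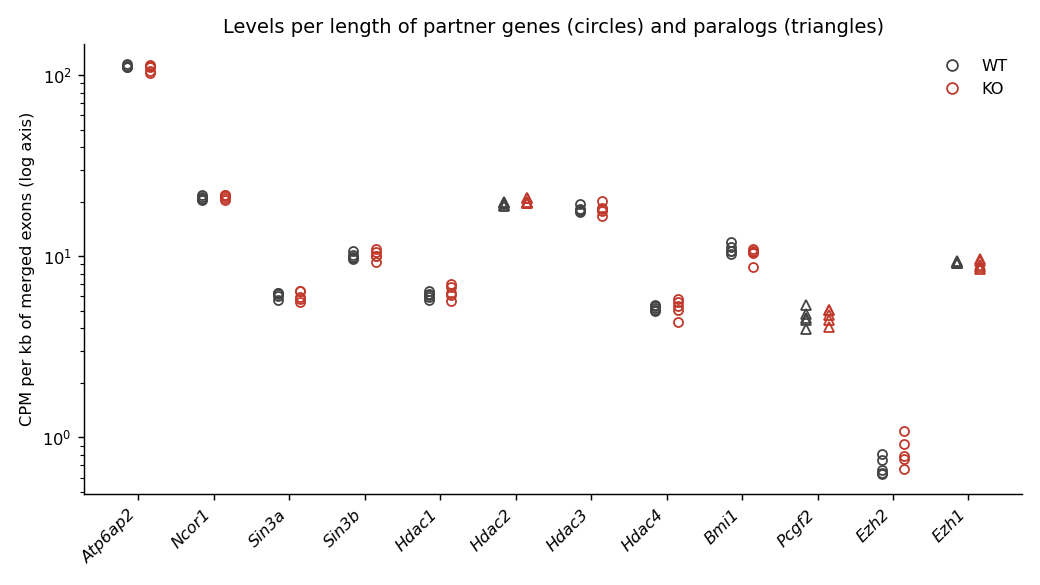
CPM per kb of merged exons (log axis) in each of 5 WT and 5 KO mice for the 9 partner genes (circles) and 3 of their paralogs (triangles). *Atp6ap2* is the highest and *Ezh2* the lowest, and *Ezh1* lies far above *Ezh2* in every mouse.

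Several members have a paralog that can take their place in the complex. *Ezh1*, the other methyltransferase of PRC2 and the main one of cells that have stopped dividing, stood at 9.29 CPM per kb in WT mice, 13.5-fold above *Ezh2*, and 7.85- to 14.7-fold above it over all 10 mice. *Hdac2*, which shares the SIN3 complex with *Hdac1*, stood at 19.5 CPM per kb, 3.21-fold above *Hdac1*. *Pcgf2*, the closest relative of *Bmi1*, was lower than *Bmi1* at 4.63 CPM per kb. Of the 11 deacetylase genes *Hdac11* was the highest at 49.2 CPM per kb, and of the others only *Hdac2* was above *Hdac3*.

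The ratio of a member to its paralog within a mouse does not depend on how libraries are scaled, and 5 ratios were compared between the genotypes, 4 of which are given here. None of these 4 differed in an exact two-sided permutation test over the mice with adjustment over the 5 ratios, where the smallest possible p was 0.00794. The ratio of *Ezh2* to *Ezh1* was 0.0634, 0.114, 0.0808, 0.0716 and 0.0919 in KO mice 1 to 5 and 0.0722, 0.0618, 0.0612, 0.0628 and 0.0791 in WT mice 1 to 5. It was above the WT mean in 4 of 5 KO mice, with a log2 difference of 0.30 (exact permutation p = 0.0794, adjusted p = 0.397). Leaving out KO mouse 2 lowered that difference to 0.18, and leaving out KO mouse 1 raised it to 0.40 (exact permutation p = 0.0397, adjusted p = 0.198).

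For *Bmi1* to *Pcgf2* the log2 difference was -0.11 (exact permutation p = 0.429, adjusted p = 0.714), and KO mouse 5 was the extreme, at 1.96 against 2.32 to 3.05 in the other mice. Without KO mouse 5 this difference was -0.03 and without KO mouse 4 it was -0.18 (exact permutation p = 0.825 and 0.190). The log2 differences of *Sin3a* to *Sin3b* and of *Hdac1* to *Hdac2* were -0.03 and 0.00 (exact permutation p = 0.659 and 0.944). The ratio of *Hdac1* to *Hdac2* ranged from 0.207 to 0.275 in KO mice and from 0.228 to 0.251 in WT mice.

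**Figure D4:**
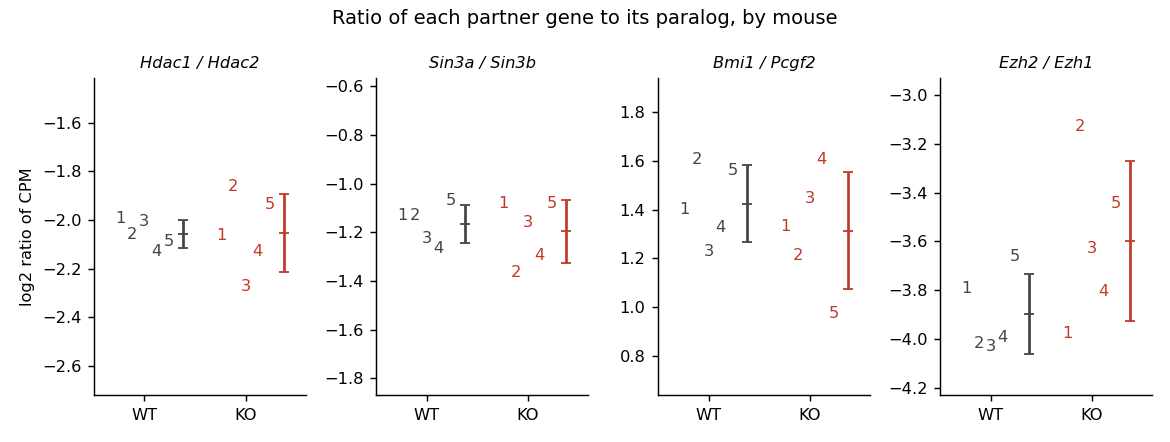
Log2 ratio of the CPM of a partner gene to that of its paralog in each mouse (y axes of equal span), by genotype (x axis). Digits are replicate numbers, and bars are the mean and SD of 5 mice. The genotypes overlap in all 4 panels, and KO mouse 5 is the extreme for *Bmi1* to *Pcgf2*.

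The 9 genes were then set beside 8 lists of complexes, pathways and other PLZF partners, which hold 99 genes, 95 of them tested (*Ren1*, *Agtr1b*, *Sall4* and *Vdr* were too low). The list of other PLZF partners holds none of the 9 genes. None of the 95 passed the threshold in edgeR, where the lowest adjusted p was 0.196. An unadjusted p under 0.05 was reached by 11 genes, or 11.6%, close to the 10.6% over all tested genes, and 2 genes, or 2.11%, had no overlap between the genotypes, beside 1.58% over all. The 11 were unevenly spread, with 0 in the lists of the NCoR complex and the V-ATPase. Most were among the 7 tested genes for other PLZF partners, 2 above 0 and 2 below it. Above 0 were 50 fold changes and below it 45, with a median of 0.00 on the log2 scale. The lists hold some of the same genes and were chosen with earlier results known, and they were not tested as sets.

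In the list of the NCoR complex, 1 of 6 fold changes was above 0, with a median log2 fold change of -0.04, and the lowest p belonged to *Tbl1xr1*, a scaffold subunit (log2 fold change -0.08, adjusted p = 0.537 in edgeR's test). In the SIN3 complex 12 of 17 were above 0, with a median of 0.01. *Sap30*, a subunit that joins SIN3 to its partners, had the largest fold change there, 0.37 (adjusted p = 0.256), and ranged from 4.91 to 7.62 CPM in KO mice and from 4.45 to 6.18 CPM in WT mice. *Arid4a*, a DNA-binding subunit, came next by p in that complex (0.12, adjusted p = 0.565). Among the 11 deacetylase genes the median was -0.01. *Hdac7*, a class IIa enzyme like HDAC4, had the lowest adjusted p of all list genes, 0.196 in edgeR's test, with a log2 fold change of -0.21, and was at 23.6 ± 1.14 CPM in KO mice and 26.5 ± 2.39 CPM in WT mice (SD, n = 5 each). *Hdac5*, of the same class, had a log2 fold change of 0.07 (adjusted p = 0.608).

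Of 22 PRC1 genes 10 had fold changes above 0, with a median log2 fold change of -0.03. *Cbx6*, a chromodomain subunit, was higher than the WT mean in all 5 KO mice (log2 fold change 0.08), and *Pcgf5*, a paralog of *Bmi1* in variant PRC1, was lower than it in all 5 (log2 fold change -0.12), with adjusted p-values of 0.421 and 0.433 in edgeR's test. Of 12 PRC2 genes 8 were above 0, with a median of 0.01. *Phf1*, which tethers PRC2 to chromatin, was 30.6, 30.3, 30.6, 26.2 and 24.3 CPM in KO mice 1 to 5 and 35.0, 31.7, 33.1, 31.3 and 31.5 CPM in WT mice 1 to 5. Every KO mouse was below every WT mouse, by a small margin between the nearest ones, and its log2 fold change was -0.17 (adjusted p = 0.276 in edgeR's test). Of the exon bases of *Phf1* 39.3% overlap *Cuta* on the other strand, and whether strand was used in counting is not given in the sources used here, so its counts are uncertain. *Epop*, a PRC2-associated protein gene, had a log2 fold change of 0.08 (adjusted p = 0.545), although its KO mean of 132.0 CPM was below its WT mean of 132.6 CPM.

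Around *Atp6ap2*, the 18 V-ATPase genes had log2 fold changes from -0.03 to 0.08, with a median of 0.00 and no unadjusted p under 0.05. The lowest p-values there were those of *Atp6v1e1* and *Atp6v0e*, genes of a peripheral and a membrane subunit (log2 fold changes 0.04 and 0.08, adjusted p = 0.745 and 0.787 in edgeR's test). Among 9 tested genes of the renin-angiotensin system 6 were above 0, with a median of 0.06. *Mas1*, a receptor for an angiotensin fragment, was above the WT mean in all 5 KO mice (log2 fold change 0.21, adjusted p = 0.321). *Agtr2*, an angiotensin receptor, was lower in every KO mouse, 0.0590 to 0.308 CPM, than in any WT mouse, 0.332 to 0.584 CPM. Its log2 fold change was -1.13 (adjusted p = 0.423), and it rests on few counts, since KO mouse 4 was under the floor of 3 counts. *Agtr2* lies on chromosome X, and KO mouse 3, whose Y-linked genes go against its label, was the highest KO mouse. The fold change of *Agtr2* without that mouse is not given here. *Ren1*, which encodes the ligand of *Atp6ap2*'s product, was at 0 in all 5 KO mice and below the filter in WT mice, so a difference was not detectable at this depth.

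Of 7 tested genes for other PLZF partners 3 were above 0, with a median log2 fold change of -0.03. An unadjusted p under 0.05 in edgeR's test was reached by 2 genes above 0 and 2 below it. That is a higher share than the 10.6% of all tested genes, in a list of few genes. *Fhl2*, a LIM-domain cofactor, was below the WT mean in all 5 KO mice (log2 fold change -0.17, adjusted p = 0.282 in edgeR's test). *Runx1t1*, which encodes the corepressor ETO, was above it in all 5 (log2 fold change 0.17, adjusted p = 0.343). Both groups of values overlapped for each gene.

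**Figure D5:**
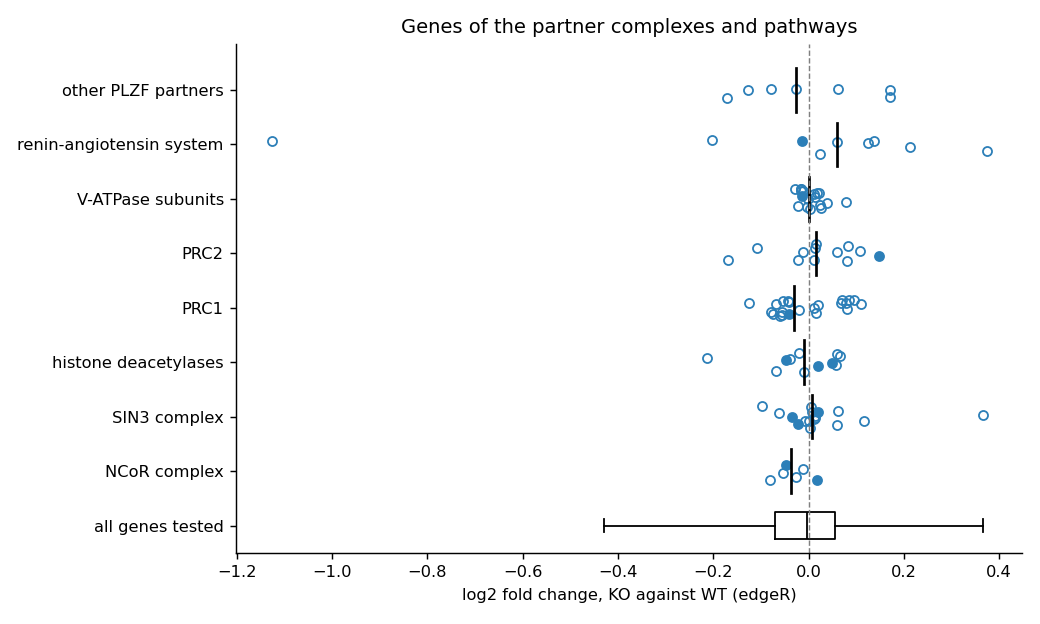
Log2 fold change of KO against WT mice (x axis, edgeR) for the tested genes of 8 lists (filled dots are the 9 partner genes, black lines the medians), above a box of all 14344 tested genes with whiskers to the central 95%. The dots of the V-ATPase list lie between -0.03 and 0.08, and *Agtr2* is the dot near -1.13.

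Over the 10 mice, the 9 genes had no common pattern. After the genotype means were subtracted from log2(CPM + 1), 18 of the 36 pairs of members had a positive and 18 a negative correlation, and none passed adjustment over the 36 pairs in a permutation test. The strongest was between *Hdac3* and *Atp6ap2* (Pearson's r = -0.78, permutation p = 0.00994, adjusted p = 0.241; Spearman's rho = -0.60, permutation p = 0.0736, adjusted p = 0.487). Without KO mice 4 and 5, the mice farthest from the median of *Hdac3*, r was -0.24, so it rests on those mice.

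As a description over the same 10 mice, the gene most like a member in this measure was *H2-DMb1* for *Ncor1* (r = 0.96), *Tle1* for *Sin3b* (0.94), *Ech1* for *Hdac1* (0.93), *Plpp5* for *Hdac3* (0.98), *Nectin1* for *Hdac4* (0.98), *Exoc5* for *Bmi1* (0.99), *Gsn* for *Ezh2* (0.95) and *Pdpk1* for *Atp6ap2* (0.97). Each is the highest of 14344 correlations over few mice. *H2-DMb1* was at only 0.781 CPM in WT mice (SD 0.223), beside 269.1 CPM for *Ncor1*, so its pattern rests on few counts. The mice share depth, RNA quality and tissue makeup across genes, and a high r was common for *Bmi1*, with 60 genes above 0.9, and rare for *Hdac1*, with 4.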

How the data were processed

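Alignment to mm10 was by STAR (2.7.1a), and HTSeq (0.9.1) counted uniquely mapped reads over the exons of protein-coding genes (Gencode M21), per the paper's methods and the submitters' processing notes. The authors deposited raw counts for 22000 genes in 10 libraries. From these counts edgeR (4.0.16, in R 4.3.3) was run with TMM factors, filterByExpr, and a model of genotype and 3 surrogate variables from sva (3.50.0, on log2(CPM + 1), seed 1), weights per mouse that stand for unrecorded differences. P-values were adjusted by Benjamini-Hochberg over all tested genes, with a threshold of 0.05. CPM are TMM-normalised. Coefficients of variation and SDs are within genotype. Positions and exon lengths come from Gencode M21. DESeq2 (1.42.0), limma (3.58.1), other covariates, scalings and filters, the mice whose RIN was at least 9.5, and leaving out each mouse were alternatives. The edgeR fit alone was tested on simulated counts, which held no unrecorded differences between libraries. The genes named are the members, *Zbtb16*, the paralogs in the 5 ratios, the 2 genes of lowest p in each list and the gene most like each member, apart from 1 ratio with its paralog and 1 most alike gene, which are not reported here. Members and lists were chosen with earlier results of these data known.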

Additional observations from a re-analysis of the deposited data

Results flagged for a closer look

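In KO mouse 5 *Bmi1* was 34.8 CPM, against 41.2 to 43.5 CPM in the other 4 KO mice, a gap to the nearest of 0.733 of the group's range (the 95% critical value of Dixon's test for 5 samples is 0.71). In WT mouse 4 *Agtr2* was 0.584 CPM, against 0.332 to 0.398 CPM in the other WT mice, a gap of 0.738 of the range. Over the 34 genes and ratios examined, each in both genotypes, 68 groups of mice were tested and these 2 passed, while chance alone passes about 1 group in 20.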

How the results depend on the processing

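None of the 9 members and none of the list genes was called in any of the 24 alternatives, where the lowest adjusted p of a member was 0.445. Of 126 fold changes of members in the 14 alternatives that kept the design's mice or took those of high RIN, 114 kept their direction. *Hdac3* turned to 0.00657 without surrogate variables, 0.00407 with RIN as covariate, 0.00471 with the replicate block and 0.00160 with the striatal marker score. *Sin3b* turned to 0.0157, 0.0170 and 0.0165 with 0, 1 and 2 surrogate variables, 0.0155 with RIN, 0.0152 with the replicate block, 0.0246 with the striatal score and 0.0485 in the mice of high RIN. *Ncor1* turned to -0.00465 with 4 surrogate variables. Leaving out each mouse gave -0.0139 to 0.0382 for *Ncor1*, -0.0176 to 0.0617 for *Hdac1*, -0.0664 to 0.000278 for *Sin3a*, -0.0600 to 0.0314 for *Sin3b* and -0.0456 to 0.00500 for *Atp6ap2*, and among the ratios -0.0436 to 0.0585 for *Hdac1* to *Hdac2* and -0.0592 to 0.0118 for *Sin3a* to *Sin3b*. The cause was not tested.

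In all, 121 genes were called, against 30, 34 and 57 with 0, 1 and 2 surrogate variables, 38 with RIN, 9 with the striatal score, 1 in mice of high RIN, 233 in DESeq2, 8 in limma, 0 in limma with a pseudocount of 0.1 (where *Zbtb16* was -0.67, adjusted p = 0.0797) and 39 to 248 when each mouse was left out. Replicate numbers join different mice. Correlations of same-numbered mice ran from -0.11 to 0.17 and 3 of 5 were above 0.1, so the numbers were not taken as pairs. With the replicate block 24 genes were called. At 5 mice a group, the interval of *Ezh2* in the fit with 3 surrogate variables does not exclude an increase of up to 34.1%. That bound belongs to this fit alone. The log2 fold change of *Ezh2* was larger without surrogate variables (0.280, SE 0.141) and with RIN as covariate (0.284, SE 0.144).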
